A study of Homo sapiens with 14 samples.

Results

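The KLF4-bound intervals of wild-type (WT) BEAS-2B cells were compared between untreated cells and cells given arsenic. BEAS-2B is a line of immortalized cells from human bronchial epithelium. The members are all intervals on chromosomes 1 to 22 and X in the control and As3+ lists of WT cells. There were 30617 of them, out of 107268 in the 4 KLF4 lists of the series, with 29866 in the As3+ list and the rest, 643 kept and 108 lost after arsenic, in the control list. The study asked how KLF4 occupancy of the genome responds to arsenic and to loss of the transcription factor Nrf2. The WT cells are colonies from the CRISPR transfection that, per the study's methods, still expressed Nrf2, so both libraries come from cells that went through the same editing procedure. Treated cells received 1 µM As3+ (trivalent arsenic) for 6 h, and control cells received none. Chromatin immunoprecipitation with sequencing (ChIP-seq) with an antibody to KLF4 gave 1 library for each condition. For KLF4 there was 1 input library of BEAS-2B cells, whose label states no treatment and does not call it a control. No difference below has a replicate check, no p-value between the conditions is given, and the treatment and the library cannot be told apart.

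KLF4 is a zinc finger transcription factor of the Krüppel-like family, which binds GC-rich DNA and CACCC-type sequences. It is known as one of the factors that reprogram somatic cells to pluripotency, and in epithelia it takes part in differentiation and in the formation of the barrier. It can act as an activator or a repressor, at promoters as well as at distant enhancers. Arsenite is a thiol-reactive metalloid that raises oxidative stress and activates Nrf2.

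An interval of the control list was called kept when it shared at least 1 bp with an As3+ interval, and lost when it shared none. An As3+ interval with no control interval under it was called gained. The sequences below show what DNA lay under the strongest intervals of each class that held a KLF word (CCACACCC or CCACGCCC) or an AP-1 word (TGACTCA or TGAGTCA). The summit is the position of the highest signal in an interval. Each sequence is on GRCh38, 5′ to 3′ on the strand given, and capitals mark the word nearest to the summit. AP-1 is the dimer of FOS and JUN proteins, and its site often stands in epithelial enhancers. Intervals far from any start site are named by the nearest protein-coding gene. The first 4 sequences are from kept intervals. The KRT80 stretch also ends in a KLF word on the other strand, left in small letters.

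CALCOCO1 promoter, KLF word (chr12:53727658-53727686, minus strand): tcctttgctggCCACACCCtcgttttctg
CPLANE1, KLF word (chr5:37272789-37272817, minus strand): ccttgagtgccCCACGCCCttgcagggta
KRT80, AP-1 word (chr12:52147485-52147513, plus strand): tgctgcagcccTGAGTCAcccgggtgtgg
CCN5, AP-1 word (chr20:44693121-44693149, plus strand): tcccaaaggcaTGAGTCActcatggtgga

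The next 4 are from gained intervals, a pair at promoters with the KLF word and a pair away from promoters with the AP-1 word.

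TMSB10 promoter, KLF word (chr2:84905742-84905770, minus strand): accggatccgaCCACACCCtgggtgggcc
NCOA3 promoter, KLF word (chr20:47501743-47501771, plus strand): gcccacgtcgCCACGCCCtccgccgcgga
PLEKHG6, AP-1 word (chr12:6278808-6278836, plus strand): ccacggagggcTGACTCAtcctggcgccg
EDN2, AP-1 word (chr1:41496377-41496405, plus strand): cgtgccggccaTGAGTCAgcgcgcaggaa

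The last 4 are from lost intervals, all of them away from promoters.

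CD109, KLF word (chr6:73680365-73680393, minus strand): ttttaagtatgCCACACCCttacactggc
FBXW7, KLF word (chr4:152328765-152328793, minus strand): gtggtatgtagCCACACCCaatactgttg
KIF23, AP-1 word (chr15:69390782-69390810, plus strand): tccctcatcagTGAGTCAggcccagctta
TBX15, AP-1 word (chr1:118662073-118662101, plus strand): atagagaaaaaTGACTCActacataaaca

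The word lay 0 bp from the summit at CD109 and 2 bp from it at FBXW7. At PLEKHG6 it lay 96 bp away, so the word is not under the summit of every strong gained interval.

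After arsenic 643 of the control intervals were kept and 108 were lost, while 29225 As3+ intervals were gained. The kept share was 85.6%, with a 95% Clopper-Pearson interval of 82.9% to 88.1%, and the lost share was 14.4% (11.9% to 17.1%). Such intervals reflect counting error alone, since the spread between libraries is unknown. On the As3+ side, 97.9% of the list was gained (97.7% to 98.0%). Retention followed the strength of the control interval. Of the 188 strongest control intervals by −log10 p, 95.7% were kept (91.8% to 98.1%), and of the next ranges of like size 87.8% and 85.0%. In the weakest range 73.9% were kept.

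Most strong As3+ sites were not control sites. To compare the lists at equal length, as many of the strongest As3+ intervals by −log10 p were taken as the control list holds, here called the top As3+ intervals. Of the control intervals, 271 overlapped one of these, or 36.1% (32.6% to 39.6%). Among the top As3+ intervals, 266 lay over a control interval and 485 were gained, a gained share of 64.6% (61.0% to 68.0%). The kept sites stood high in the As3+ list but were spread through it. Their median As3+ rank was 1245, with quartiles at 246 and 4698, and 271 of the 643 fell in the top range.

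The lists hold a fold enrichment and a p at each summit, from which the fragments over the summit and the local background were worked out. The lowest background was 1.90 fragments in the control list and 0.757 in the As3+ list, a ratio of 2.51, and the median ratio over the 643 kept sites was also 2.51. The control library was thus the deeper by this measure, while its list was the shorter. At the kept sites the control summit had a median of 26 fragments and the As3+ summit 23. Divided by the background ratio, the control signal was a median of 0.447 of the As3+ signal, with quartiles at 0.327 and 0.615. The scaled signal was lower in control cells at 627 kept sites and higher at 16. Summits of the pairs lay close, at a median of 55 bp, and 473 pairs had them within 100 bp.

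**Figure D1:**
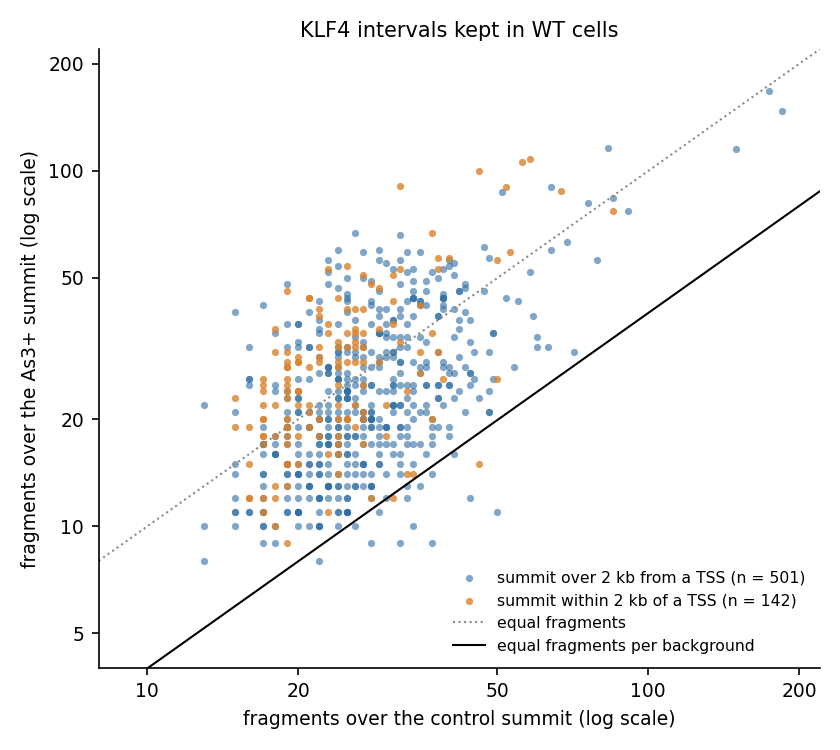
Fragments over the summit in control (x axis) and As3+ cells (y axis), both on log scales, for the 643 kept KLF4 intervals, 1 point each. Most points lie above the solid line of equal fragments per background, which uses the ratio of 2.51, and the orange points (142 intervals with a summit within 2 kb of a protein-coding TSS) lie higher than the blue ones (501 intervals) on the whole.

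Promoter sites stood further from equality than other sites. The scaled ratio of control to As3+ signal had a median of 0.338 at the 142 kept sites within 2 kb of a protein-coding transcription start site (TSS) and 0.497 at the other 501. The extremes were named after their values were seen. In the interval at the TUBB2A promoter (a β-tubulin gene) the control summit had 32 fragments and the As3+ summit 91, the lowest scaled ratio at 0.140. In a distal interval nearest to ADAMTSL1 the control had 50 and the As3+ library 11, the highest scaled ratio at 1.81.

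A gained interval does not have a measured control level, since the control list holds no value below its threshold. The lowest −log10 p in the control list was 4.64. If the local background scaled by 2.51, a control summit would have needed a median of 13 fragments to be listed at a gained site. For the 485 gained intervals among the top As3+ intervals, that limit put the scaled control signal below a median of 0.221 of the As3+ signal, and in 100% of them below the 0.447 of the kept sites. These intervals were picked for a strong As3+ signal and for absence from the control list, which by itself holds the limit low. The 100% is therefore no sign of a stronger response than at the kept sites. Over all gained intervals the median limit was 0.511, and in 31.1% it was below 0.447. For most gained intervals the lists therefore do not tell a site as responsive as the kept ones from a more responsive one. At equal scaled fragments, 100% of the gained intervals would have reached a −log10 p of 4.64, with a median of 14.5.

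Lost intervals were weak and distal. Their median fragment number was 20, against 26 for kept control intervals, and their median GC content over 200 bp at the summit was 46.5% against 59.0%. Of the 108, 82 (75.9%) would have reached the lowest −log10 p of the As3+ list, 3.17, at equal scaled fragments. The nearest As3+ interval lay a median of 29452 bp away, and 18 lost intervals had one within 1 kb. The 5 strongest lost intervals over 10 kb from any TSS were nearest to SCYL3, CD109, DUSP6, KBTBD11-OT1 and IQCJ-SCHIP1, with 22 to 32 fragments.

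Gained intervals were found much nearer to promoters than kept and lost ones. Within 2 kb of the TSS of a protein-coding gene, a window that holds 2.43% of these chromosomes, lay 45.8% of the gained summits (45.2% to 46.4%). The share was 22.1% (18.9% to 25.5%) for kept control summits and 7.41% (3.25% to 14.1%) for lost ones. Introns held 32.3% of the kept and 20% of the gained summits. Summits over 10 kb from any annotated TSS made up 57.4% of the lost, 28.1% of the kept and 17.4% of the gained intervals. At equal list length the difference remained, with 45.9% of the top As3+ summits and 20% of the control summits at promoters. Among the gained of the top As3+ intervals it was 55.9%, and among the kept of them 27.8%.

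**Figure D2:**
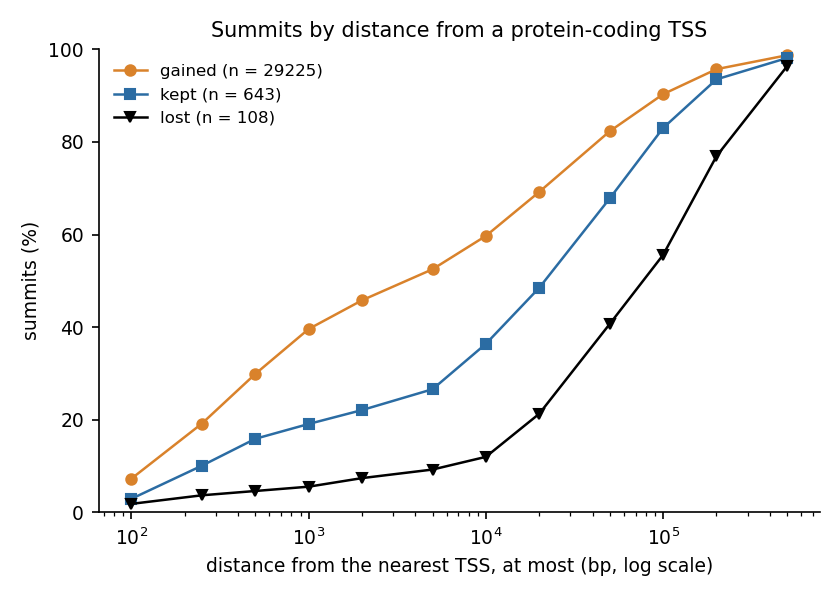
Share of KLF4 summits (y axis, percent) within a given distance of the nearest protein-coding TSS (x axis, bp, log scale) for gained, kept and lost intervals. The gained curve is the highest at each distance and the lost curve the lowest, at 45.8%, 22.1% and 7.41% within 2 kb.

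Gained promoter summits lay close to the TSS on both sides of it, more of them downstream than upstream. Their median distance from the TSS in either direction was 320 bp, and 65.3% lay within 500 bp of it. Of the 13382, 61.6% lay downstream of it and 5125 upstream. A promoter often held several summits, with 3632 genes holding 2 or more and 6894 holding 1.

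The strongest sites of the As3+ list were not the most promoter-bound. In the top range the promoter share was 45.9%, it was 66.4% from rank 752 to 2000 and 65.7% from 2001 to 5000, and it was 31.4% from 20001 to 29866. Overlap with the control list went from 35.4% in the first of these ranges to 8.89% in the next and 0.233% in the last. The median GC content at the summit was 69.5% in the first range and 60.5% in the last. The median fragment number went from 30 to 7 over the same ranges, so the weak end of the list rests on few fragments.

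**Figure D3:**
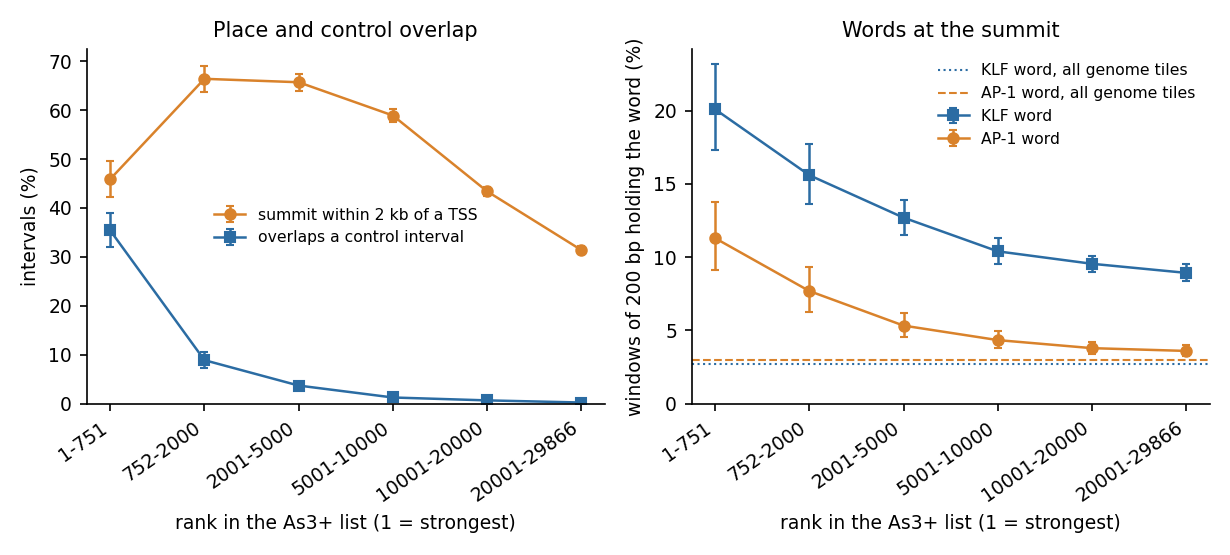
Shares of As3+ intervals by their rank in the list, with 95% Clopper-Pearson intervals for counting error. The left panel gives the share near a protein-coding TSS, highest at 66.4% in ranks 752 to 2000, and the share over a control interval, which goes from 35.4% to 0.233%. The right panel gives the share of 200-bp windows at the summit holding a KLF word or an AP-1 word, beside all genome tiles (dotted and dashed lines).

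Both words were more frequent in kept than in gained intervals, with a smaller contrast within the top range. Words were counted on either strand of a 200-bp window at the summit, and a match is a description of the letters and not a bound site. The KLF word stood in 28.5% of kept control intervals (25.0% to 32.1%), 14.8% of lost ones (8.71% to 22.9%) and 9.90% of gained ones (9.56% to 10.3%). It stood in 2.71% of all 200-bp tiles of the genome and in 5.98% of windows at protein-coding TSS. Relative to genome tiles of the same GC content, this was 3.93 times for kept, 3.10 times for lost and 1.32 times for gained intervals (1.27 to 1.36). Among the gained of the top As3+ intervals the share was 17.3%, or 2.16 times the tiles of like GC content (1.75 to 2.61). Among the kept of the top As3+ intervals it was 25.2%, or 3.35 times (2.67 to 4.11). Kept intervals are the stronger on the whole, so part of the contrast over the full list goes with strength.

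The AP-1 word stood in 19% of kept control intervals (16% to 22.2%), 13.9% of lost ones and 4.04% of gained ones (3.82% to 4.27%), with 2.99% of all tiles and 2.11% of TSS windows. The ratio to tiles of like GC content was 7.29 for kept and 1.90 for gained intervals. Within the top As3+ intervals it was 6 for the gained (4.29 to 8.11) and 8.78 for the kept (6.60 to 11.3), ranges that overlap. The raw shares there were 7.84% and 17.7%. It was mostly a word of sites away from promoters. Of the kept intervals 22.6% held it outside promoters and 6.34% at promoters, and of the gained 5.88% and 1.86%. At least 1 of the KLF and AP-1 words stood in 41.2% of kept, 24.1% of lost and 13.4% of gained intervals, so most gained intervals held neither of these letters.

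A GC box, the CCCCGCCCC word that SP and KLF factors can bind, stood in 7.82% of gained, 4.51% of kept and 2.78% of lost intervals, and in 18% of windows at protein-coding TSS. Relative to tiles of like GC content this was 1.45 times for gained (1.39 to 1.50), 1.43 times for kept (0.966 to 2.04) and 5.49 times for lost intervals (1.14 to 15.6), the last on 3 intervals, so the raw order is not seen at like GC content. Among the gained of the top As3+ intervals it stood in 19% (15.6% to 22.7%), 1.84 times tiles of like GC content. The ARE word TGACNNNGC, a short core of the element that Nrf2 binds with small MAF proteins, stood in 9.29% of gained and 13.8% of kept intervals. Tiles of like GC content held it in 8.89% and 8.77%, and 6.48% of lost intervals held it. The gained share was thus 1.04 times its tiles (1.01 to 1.08).

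At the level of genes, KLF4 summits within 2 kb of the TSS were found for 159 protein-coding genes in control and 10526 in As3+ cells, of 19970. These are 0.796% and 52.7% of protein-coding genes. A summit was gained at 10369 genes (51.9%), kept at 157 (0.786%) and lost at 2 (0.0100%). With the top As3+ intervals, 378 genes had a summit (1.89%), of which 299 were gained (1.50%) and 79 had a control summit, while 80 genes with a control summit had none. The 159 control genes and the 378 genes of the top As3+ intervals come from lists of the same length.

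The kept promoters with the strongest control signal served varied roles. CALCOCO1, a coiled-coil coactivator and autophagy receptor, had the strongest control interval, chr12:53727455-53727809, with 85 fragments against 77 in As3+ cells. S100A14, an epithelial calcium-binding protein, had 67 and 88 fragments. LEMD2, a protein of the inner nuclear membrane, had 53 and 59. SLC7A5, the large neutral amino acid transporter LAT1, had 50 and 56. Since the control background is 2.51 times higher, like numbers of fragments stand for a higher enrichment in As3+ cells.

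Several other kept promoters had far more fragments after arsenic in spite of the lower background. SEMA3B, a secreted semaphorin, had 58 fragments in control and 108 in As3+ cells, the As3+ interval ranking 2 in its list. DDX1 (an RNA helicase), NBAS (a Golgi-to-ER transport protein) and MYCN (a MYC-family transcription factor) lie close together on chromosome 2. DDX1 had 56 and 106 fragments, NBAS 52 and 90, and MYCN 32 and 53 at their strongest summits. The MYCN summits lay 1156 bp apart, and a control summit 69 bp from the As3+ one had 38 fragments. This 1 neighbourhood supplied 3 of the 10 strongest kept promoters. The shared promoter of LRRC41 and UQCRH, a subunit of respiratory complex III, had 50 fragments in control and 26 in As3+ cells, with a scaled ratio of control to As3+ signal of 0.765 and an As3+ rank of 954.

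Growth factor and chromatin genes were also among the kept. EGFR, the epidermal growth factor receptor, had a control summit 726 bp downstream of its TSS with 22 fragments, and the As3+ summit 758 bp downstream had 41 at a background of 0.963, rank 39. KMT2A, a histone H3 lysine 4 methyltransferase, had 18 and 36 fragments, rank 57. VIM, the mesenchymal intermediate filament vimentin, had 29 and 47, rank 95. CTNNB1, the β-catenin of junctions and WNT signaling, had 18 and 31, rank 200. All 4 of these promoters had more fragments in the As3+ library, but they rank high in its list. Kept members of other lists below, such as ITGA3, MYL12A, FOSL2 and RPL13, had fewer. Over all 643 kept sites the medians were 26 control and 23 As3+ fragments.

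The strongest gained promoters belonged in part to genes of the cytoskeleton and the cell surface. HPCAL1, a calcium sensor of the recoverin family, had 43 fragments over a background of 1.24 (chr2:10302367-10303331), which by the limit above puts the scaled control signal below 0.120 of it. MYL12B, a regulatory light chain of non-muscle myosin, had 40 fragments 135 bp upstream of its TSS. TMSB10, an actin-monomer-binding thymosin, had 43 fragments 139 bp downstream. TNFRSF12A (Fn14), the receptor of the cytokine TWEAK, had 45, and CD55, which protects cells from complement, had 40. These 5 promoters had no control interval.

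Signaling and transcription genes made up others of the 15. MAPK11, a p38 kinase, had 36 fragments 1446 bp upstream of its TSS. NCOA3, a coactivator of nuclear receptors, had 46 fragments 89 bp upstream. SOX12, an SRY-box transcription factor, had 40 at 1048 bp upstream. The remaining names were LRRFIP2, N4BP2, PRPH, DNAAF9, ADAMTSL5 and the gene HR with the reading frame HRURF at the same start, with 29 to 41 fragments. Of the 15, all but LRRFIP2 and PRPH had a CpG-rich promoter.

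Only AHSP and RPL39L had a control summit and no As3+ summit at all within 2 kb of the TSS. By interval overlap, 8 of the 108 lost intervals lay at promoters. The METTL3 interval among them, 132 bp from the TSS, had 30 fragments at control rank 119. AHSP, a chaperone of α-globin in red cells, had 17 control fragments 1343 bp downstream of its TSS, at rank 622 of the control list. RPL39L, a paralogue of a ribosomal protein gene, had 14 at 3 bp from its TSS, at rank 699. Both stood near the weak end of the control list.

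The strongest distal sites differed between the classes. Over 10 kb from any TSS, the kept intervals with the largest −log10 p were nearest to CPLANE1 (71 control fragments), KRT80 (64), XPA (59), CAV3 (63) and FBLN2 (60). The gained ones were nearest to EDN2 (endothelin 2, 50 As3+ fragments), TWIST2 (a mesenchymal transcription factor, 53), CYRIA (31), PDGFA (a platelet-derived growth factor, 31) and HAAO (37). The nearest gene need not be the gene that a site acts on.

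Promoter type went along with the gained summits. A promoter was called CpG-rich when the 1001 bp at the TSS had a GC content of at least 55% and a ratio of observed to expected CpG of at least 0.65. Such promoters are typical of housekeeping and widely expressed genes. An As3+ summit was present at 75.0% of 11288 CpG-rich promoters (74.2% to 75.8%) and 23.7% of 8682 others (22.8% to 24.6%). Of the gained genes 80.5% were CpG-rich, of the kept 79.6%, and of genes with no summit 29.8%. Among the 299 genes gained at equal list length it was 92.6%. Each function list below is therefore to be read beside the 52.7% of all genes, with the CpG-rich members given apart. A count at or below the share of its promoter type is no mark of the function.

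**Figure D4:**
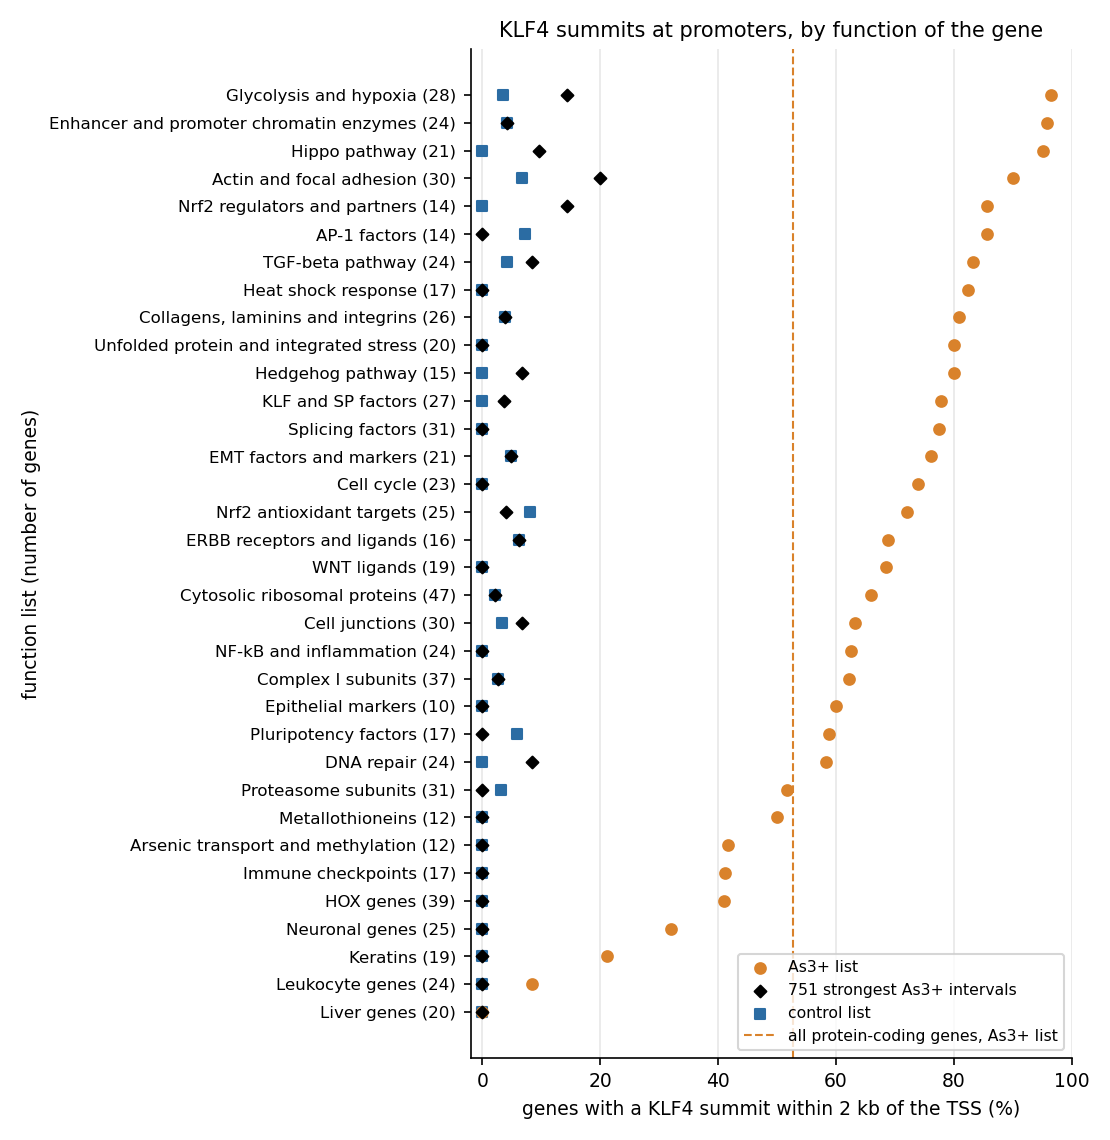
Share of the genes of each of 34 function lists (y axis, number of genes in brackets) with a KLF4 summit within 2 kb of the TSS (x axis, percent). Orange circles are the As3+ list, black diamonds its top intervals (as many as the control list holds) and blue squares the control list (at equal values the markers lie on each other). The dashed line marks all protein-coding genes in the As3+ list, 52.7%, and the lists run from 96.4% for glycolysis and hypoxia to 0% for liver genes.

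Genes of glycolysis and the hypoxia response had a summit at 27 of 28, PGK1 being the exception. Among the top As3+ intervals they had 4, or 14.3% beside 1.89% of all genes and 3.02% of CpG-rich promoters. PKM, the pyruvate kinase of the last step of glycolysis, had 36 fragments at rank 188. PFKL and PFKP, subunits of the phosphofructokinase that commits glucose to glycolysis, had 26 at rank 354 and 23 at rank 647. NDRG1, a gene induced by hypoxia, was the kept member, with 22 fragments in control and 39 in As3+ cells. The share in CpG-rich members was 96.0% beside 75.0% of all CpG-rich promoters.

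Genes of actin and focal adhesions had a summit at 27 of 30, and 6 of 30 (20%) had a top As3+ interval, the largest share of the 34 lists. Of all CpG-rich promoters 3.02% had a top interval. TAGLN2, the actin-binding transgelin 2, was kept with 38 and 57 fragments, at As3+ rank 22. MYL12A, the neighbour and paralogue of MYL12B, was kept with 38 and 31. PFN1 (profilin), ACTG1 (cytoplasmic γ-actin) and TPM1 (a tropomyosin) were gained with 28, 25 and 25 fragments. PXN, TPM3 and TAGLN had no summit. Of the CpG-rich members 95.8% had one, beside 75.0% of all CpG-rich promoters.

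Matrix and junction genes were covered less evenly. Collagens, laminins and integrins had a summit at 21 of 26, with COL1A1, a chain of type I collagen, gained at 41 fragments and ITGA3, an integrin of epithelial cells, kept with 25 and 20. Cell junction genes had one at 19 of 30, with PKP3, a desmosomal plakophilin, gained at 29 fragments. CDH1 (E-cadherin), F11R and GJA1 had none. Factors and markers of the epithelial-mesenchymal transition had one at 16 of 21, among them TWIST2 at 20 fragments, while ZEB2 had none. In CpG-rich members the shares of these 3 lists were 100%, 71.4% and 83.3%, beside 75.0% of all CpG-rich promoters.

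Keratins were covered at 4 of 19, which were KRT80, KRT18, KRT5 and KRT8 with 14 to 25 fragments, all gained. By promoter type this was 1 of 3 CpG-rich members and 3 of 16 others, beside 75.0% and 23.7% of all such promoters. Of 10 epithelial marker genes, 6 had an As3+ summit and 0 a control summit, beside 52.7% and 0.796% of all genes. The 6 were 2 of 5 CpG-rich members and 4 of 5 others. Of the other markers, 1 of 6 fibroblast genes, 1 of 5 leukocyte genes, 0 of 4 endothelial genes and 2 of 4 neuronal genes had an As3+ summit. A peak list holds no RNA level, so these counts are no check of the cell type.

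Most signaling pathways lay above the share of all genes. The Hippo pathway, which restrains growth through LATS kinases and YAP, had a summit at 20 of 21 genes, with AMOTL2 at 34 fragments (rank 225) and LATS1 at 30 (rank 600), both gained. The TGF-β pathway had one at 20 of 24, with the ligand TGFB1 at 24 fragments and the co-receptor TGFBR3 at 29 gained, and the inhibitory SMAD6 kept. Its control summit had 16 fragments, the As3+ interval over it 12, and a separate As3+ interval nearer to the TSS 19. SMAD4 and INHBA had none.

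ERBB receptors and ligands had a summit at 11 of 16, with HBEGF at 27 and ERBB3 at 24 fragments beside EGFR. Hedgehog genes had one at 12 of 15, among them the co-receptor BOC at 16 fragments. WNT ligands had one at 13 of 19, led by WNT9A at 21. NF-κB and inflammation genes had one at 15 of 24, with NFKBIZ at 24 fragments, while the cytokine genes TNF, IL1A, IL1B and CXCL8 had none. In CpG-rich members the shares were 76.9% for WNT and 75.0% for NF-κB genes, beside 75.0% of all CpG-rich promoters, and 83.3% to 100% for the Hippo, TGF-β, ERBB and Hedgehog lists. Immune checkpoints had one at 7 of 17, including CD47 (20 fragments) and CD276 (18), and CTLA4 and LAG3 had none. That share of 41.2% lay below the 52.7% of all genes, but few of these promoters are CpG-rich. By promoter type it was 4 of 4 CpG-rich members, beside 75.0%, and 3 of 13 others, beside 23.7% of all such promoters.

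The arsenic and stress responses were covered to different degrees. Nrf2 regulators and partners had a summit at 12 of 14, all gained, with MAFG, a small MAF partner of Nrf2, at 30 fragments and rank 521. RBX1, a subunit of the ubiquitin ligase with KEAP1, had 23 at rank 741. Antioxidant targets of Nrf2 had one at 18 of 25. PRDX1 (a peroxiredoxin) was kept with 31 control and 37 As3+ fragments, and TXN (thioredoxin) with 19 and 19. GCLM, the regulatory subunit of the first enzyme of glutathione synthesis, was gained with 22 fragments. SLC7A11, ABCC1 and EPHX1 had no summit. The CpG-rich shares were 84.6% for regulators and partners and 87.5% for antioxidant targets, beside 75.0% of all CpG-rich promoters.

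Heat shock genes had a summit at 14 of 17, with HSPE1 and HSPD1, mitochondrial chaperonins that share a promoter, at 26 fragments. Genes of the unfolded protein and integrated stress responses had one at 16 of 20, with ERN1 and ATF4 at 19 fragments each, while HSPA5 and ATF6 had none. In CpG-rich members the shares of these lists were 93.3% and 84.2%, beside 75.0% of all CpG-rich promoters. Neither list had a member with a top interval. Only 1.89% of all genes had one, so no shortfall is shown. The list of metallothioneins, metal-binding proteins that arsenic induces, and of their regulator MTF1 had a summit at 6 of 12, led by MT2A at 24 fragments, with MTF1 at 15. Arsenic transport and methylation genes had one at 5 of 12, with SLC2A1 at 22 and GSTP1 at 17, and AS3MT, the arsenic methyltransferase, had none. The last 2 lists lay below the 52.7% of all genes, but not for both promoter types. Metallothioneins and MTF1 had a summit at 2 of 4 CpG-rich members and 4 of 8 others. Arsenic transport and methylation genes had one at 3 of 6 and 2 of 6. Among all genes the shares were 75.0% of CpG-rich promoters and 23.7% of the others. Both lists thus lay below the CpG-rich share and above the other, on few genes, so no shortfall at like promoter type is shown.

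Transcription factors of the KLF and AP-1 families had summits at their own promoters in most cases. KLF and SP factors had one at 21 of 27, all gained. KLF10, a TGF-β-inducible member, had 33 fragments 1786 bp from its TSS, rank 177, and SP1 had 23. AP-1 factors had a summit at 12 of 14, with FOS gained at 23 fragments, JUNB at 20, and FOSL2 kept with 19 control and 17 As3+ fragments. Pluripotency factors had one at 10 of 17, with MYC kept, KLF4 gained (17 fragments), and SOX2 and NANOG without one. At MYC the control summit lay 1750 bp downstream of the TSS with 19 fragments, and the As3+ interval over it had 13. A separate As3+ summit 218 bp upstream had 19. Shares in CpG-rich members were 94.7% for KLF and SP, 100% for AP-1 and 63.6% for pluripotency factors, beside 75.0% of all CpG-rich promoters.

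Chromatin enzymes of enhancers and promoters had a summit at 23 of 24, with ARID1A, a subunit of the BAF remodeling complex, at 24 fragments and EZH2, the H3 lysine 27 methyltransferase, at 19. KAT2A was the exception. All 22 of the CpG-rich members had one.

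Several lists of housekeeping machinery lay nearer to the share of all genes. Cytosolic ribosomal proteins had a summit at 31 of 47, with RPL10 at 43 fragments and rank 155 and RPL13 kept with 22 and 18. Complex I subunits had one at 23 of 37, with NDUFB9 kept at 19 and 29. Proteasome subunits had one at 16 of 31, and no member with a top interval, beside 1.89% of all genes. PSMC5 was kept, with 33 control fragments 248 bp upstream of its TSS. Its As3+ summit, with 14 fragments, lay 257 bp downstream, so the 2 values are from different positions. In CpG-rich members the shares were 74.4%, 83.3% and 59.1% beside 75.0% of all CpG-rich promoters. Splicing factors had one at 24 of 31, led by SRSF2 at 22 fragments, and at 76.0% of the CpG-rich members.

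Cell cycle genes had a summit at 17 of 23, with the inhibitor CDKN1A (p21) at 30 fragments and rank 1001, and CCND1 without one. DNA repair genes had one at 14 of 24, with LIG1 at 27 and the mismatch repair gene MSH6 at 24 fragments, both in the top range, and BRCA1 and ATM without one. The CpG-rich shares were 82.4% for cell cycle and 61.1% for DNA repair genes, beside 75.0% of all CpG-rich promoters.

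Liver, leukocyte and neuronal genes, which mark other tissues, and HOX genes, which pattern the body axis, lay below the share of all genes. Liver genes had 0 of 20 and leukocyte genes 2 of 24 (CD8A among them, with 9 fragments). Neuronal genes had 8 of 25, led by SYT1 at 18 fragments. HOX genes had 16 of 39, the strongest being HOXB7 at 14 fragments. None of these 4 lists had a member in the control list or among the top As3+ intervals. Of all genes only 0.796% and 1.89% had one, so 0 in lists of this size shows no shortfall. Few of the liver and leukocyte promoters are CpG-rich, at 0 of 20 and 1 of 24, against 27 of 39 HOX and 12 of 25 neuronal promoters. In CpG-rich members the shares were 48.1% for HOX and 41.7% for neuronal genes, beside 75.0% of all CpG-rich promoters.

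Gene families told by the stem of their symbols gave the same range. Among families of 30 or more protein-coding genes, the stems with the highest As3+ shares were UBE (ubiquitin-conjugating enzymes and relatives, 38 of 43), CEP (centrosomal proteins, 31 of 38), CDC (26 of 33), FBXO (27 of 36) and ZBTB (31 of 42). The stems with the lowest were DEFB (β-defensins, 0 of 40), OR (olfactory receptors, 2 of 416), KRTAP (keratin-associated proteins, 3 of 94), CLEC (C-type lectins, 1 of 31) and KRT (keratins, 4 of 55). CpG-rich promoters made up 77.8% to 88.4% of the first 5 families and 0% to 9.68% of the other 5.

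Across chromosomes the As3+ list was densest on chromosome 19, with 33.2 intervals per Mb, and sparsest on X, with 3.06. The control list had its highest and lowest densities on the same chromosomes, at 0.614 and 0.0641 per Mb. Chromosomes 11, 19 and 20 had no lost interval, of 30, 36 and 19 control intervals.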

How the data were processed

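KLF4 ChIP-seq lists of WT control and WT As3+ BEAS-2B cells were analysed, 1 library each. The authors aligned reads to GRCh38/hg38 with BWA at default settings (bcl2fastq 2.17 in the submitters' processing notes), and the peak caller is not given in the sources used here. Each deposited list gives a fold enrichment (a ratio over local background), −log10 p and −log10 q at the summit, and a deposited score equal to the whole part of 10 times −log10 q.

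Intervals outside chromosomes 1 to 22 and X were set aside. Fragments n and background λ were solved from fold = (n + 1)/(λ + 1) and the Poisson tail p, up to 400 fragments. The largest misfit in −log10 p was 0.000405. Read totals were not used here, so depth is known only through these backgrounds. The scaling to the background ratio, the GC box and the ARE word were added after the lists were read.

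Genes are GENCODE 44 protein-coding genes, with the start of the Ensembl canonical transcript as TSS. Words were counted in 200-bp windows, beside genome tiles weighted by GC content in steps of 5 points. Rank is by −log10 p. Shares carry exact Clopper-Pearson intervals. With 1 library per condition no test was run, and function lists were compared with the share of all genes.

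Genes named are the 10 kept and 15 gained promoters with the largest −log10 p, all lost promoters, the 5 strongest distal intervals of each class, up to 4 members of each of 34 function lists with every member that had a control summit, and the 5 highest and 5 lowest families. List members without a summit and ACTG1 and TPM1 were named after their values were seen. No sequence of chromosome 8 is printed. The members and lists were chosen with earlier results of these data known. Overlap, strictness, list length, TSS window and word window were varied. Steps were tested on simulated data. Python 3.11.15 was used with pandas 2.3.3, pysam 0.24.0, scipy 1.17.1, matplotlib 3.10.9 and numpy 2.4.6, and samtools 1.23.1 indexed the sequence. H3K4me1, H3K27Ac, Nrf2 KO and input libraries were not analysed here. Some genes that the naming rule gives are not reported here.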

Additional observations from a re-analysis of the deposited data

Results flagged for a closer look

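Outside chromosomes 1 to 22 and X, which the comparisons leave out, the WT As3+ list held 90 intervals and the WT control list 9. They were flagged because they are data that no comparison used. They made up 0.300% of the As3+ list (0.242% to 0.369%) and 1.18% of the control list (0.543% to 2.24%), and 4 and 0 of them lay on the Y chromosome, the rest on contigs.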

How the results depend on the processing

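Of 25 alternatives to 9 results, 16 moved a value beyond the counting interval or 1.5 times and 9 did not. These results are single counts and shares. The promoter and word shares of kept and lost intervals were not recomputed in these alternatives. The contrasts between classes were therefore not varied here, apart from gained and kept in the top range given above. The kept share of control intervals was 82.6% when the control summit had to lie inside an As3+ interval and 80.1% when both lists were held to a −log10 q of 5 or more. Then there were 9176 gained intervals, 5669 gained, 68 kept and 7 lost genes, and 63.0% of gained intervals lay near a TSS. With the As3+ list alone at that threshold, 8971 intervals were gained. Ranking by fold enrichment gave 30.9% kept at equal length. The gained share near a TSS was 39.6% within 1 kb and 63.0% with any transcript of any gene, which left 1 lost gene. In 100-bp windows the KLF word stood in 5.36% and the AP-1 word in 1.84% of gained intervals. In the main 200-bp windows, the gained among the top As3+ intervals held them in 17.3% and 7.84%. No paired analysis was possible because each condition has 1 library. Low fragment numbers limit the weak end of the As3+ list.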
